A study of Mus musculus with 38 samples.

Results

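The CD45+ cells of mouse dorsal skin at postnatal day 56 (P56) were compared between mutant mice with nevi (pigment cell moles) and wild-type mice, in 4 of the 38 bulk RNA sequencing libraries of the study. CD45, the product of *Ptprc*, is the surface protein that all leukocytes carry. The mutant group (2 libraries) came from mice that carry an oncogenic, constitutively active *Nras* under the tyrosinase promoter, which acts in the pigment cell lineage and not in leukocytes, and the wild-type group (2 libraries) lacked it. The labels give the genotype only as mutant or wild type and no strain, and the methods speak of biological triplicates, while this table holds 2 libraries a group and the animals behind each are not named. Cells were freed from dorsal skin with enzymes, cleared of dead cells and sorted with antibodies, but the exact gate was not found in the labels or methods. The same table holds 2 wild-type libraries of postnatal day 30 (P30), when hair follicles of wild-type skin grow (anagen), whereas at P56 they rest (telogen). Mutant skin holds follicles in growth out of turn. Levels are given as FPKM, fragment counts corrected for the length of the transcript and the depth of sequencing. All 12122 protein-coding genes with at least 1 FPKM in at least 2 of the 4 P56 libraries, of 31002 genes in the table, were tested, and changes are differences of log2(FPKM + 1), mutant minus wild type, which understate the ratio of low genes.

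Both layers of the skin hold leukocytes. The epidermis of a mouse houses Langerhans cells, which are antigen-presenting cells marked by langerin (CD207), and dendritic epidermal T cells, which carry a γδ T cell receptor, are armed with perforin and secrete growth factors for keratinocytes. The dermis houses macrophages, dendritic cells, mast cells, innate lymphoid cells and other T cells, among them γδ T cells that make interleukin 17, and monocytes and neutrophils enter it from the blood. Osteopontin, the product of *Spp1*, is a secreted glycoprotein made by several of these cells, macrophages included, and CD44 and several integrins are its receptors. The paper reports that pigment cells of nevus mice raise *Spp1* as well.

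Across tested genes, which are not independent replicates, log2 values of the 2 libraries of a group correlated at 0.995 to 0.996 and those of libraries from different groups at 0.903 to 0.950. The summed FPKM of a library was 700770 to 742324 in wild type and 803128 to 820072 in mutant libraries. In each library 12236 to 12620 genes reached 1 FPKM. Read totals are not in the table, so the depth behind a value is unknown, and p-values measure only the spread between these libraries, which may be technical. *Ptprc* stood at 365 and 360.4 FPKM in the wild-type and 239.7 and 255 FPKM in the mutant libraries, and of 15 general leukocyte genes 3 passed the test given below, as higher in the mutant, and 1 with libraries scaled to the same sum. The Y-linked *Ddx3y* and *Eif2s3y* were at 0 in the 4 P56 libraries and at 5.21 to 10.2 FPKM in the P30 libraries, while *Xist*, transcribed from the inactive X chromosome of female cells, was at 14 and 14.5 FPKM in P30, 15 and 16.6 FPKM in mutant and 23.2 and 24.6 FPKM in wild-type P56 libraries. The P30 libraries thus hold male as well as female transcripts, and differ from the P56 libraries in this as well as in age.

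Mutant and wild-type CD45+ cells differed in 2535 genes, 20.9% of those tested, 1538 (12.7%) of them higher and 997 (8.22%) of them lower in the mutant. A gene was called where limma gave a Benjamini-Hochberg adjusted p under 0.05 over all tested genes and the change was at least 2-fold, and "rose" and "fell" are used in this sense below. A value in parentheses after a gene is its log2 change, mutant minus wild type, and where levels stand "against" or "to" each other the wild-type libraries come first unless the sentence says otherwise. An adjusted p under 0.05 was reached by 8692 genes, of which 6157 changed by less than 2-fold, and in 85.5% of tested genes the libraries of the 2 groups did not overlap. Of the called genes, 114 that rose were at 0 in both wild-type P56 libraries and 36 that fell were at 0 in both mutant libraries. Such genes could pass the filter on low values only through the other group, so they could be called in that direction alone. The same holds for genes under 1 FPKM in both libraries of a group, among them *Mx1*, *Atp6v0d2*, *Inhba*, *Cxcr2* and *Csf1*. Genes of both kinds enter the list counts and medians below. The median change over all tested genes was 0.090. Scaling every library to the same FPKM sum moved this median by -0.18, and the split became 1195 higher and 1413 lower. In bulk RNA, fewer cells of a type and less RNA per cell cannot be told apart, and this holds for every cell type named below.

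**Figure D1:**
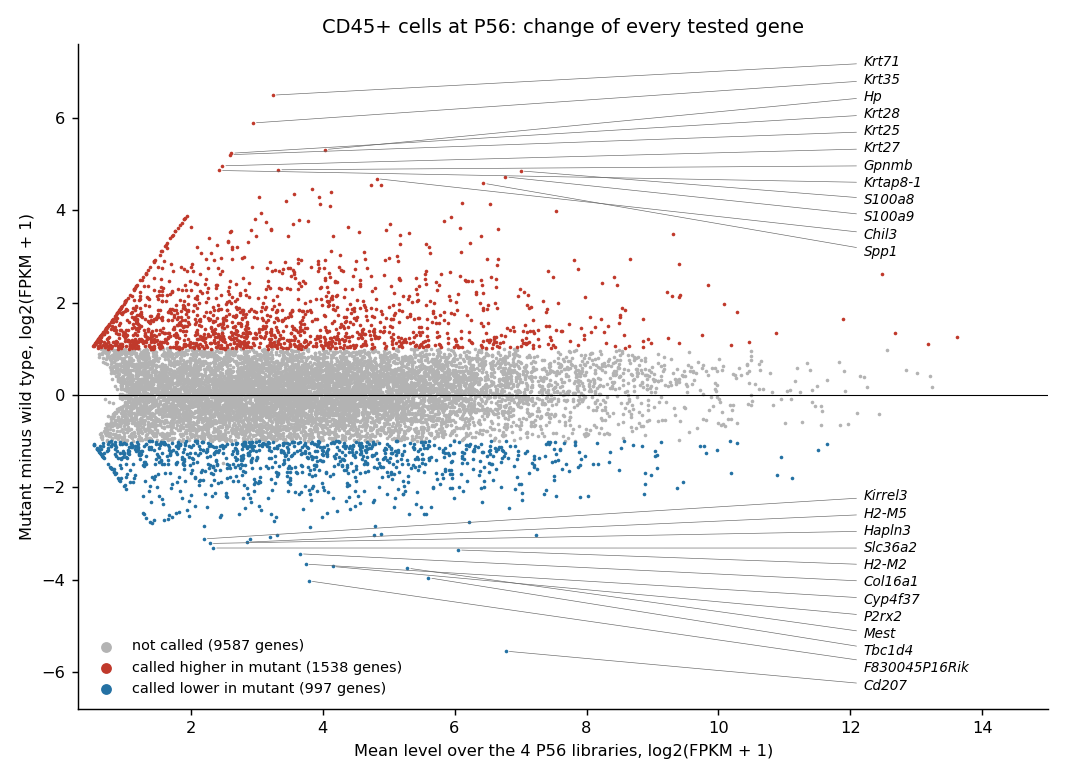
Change of each of 12122 tested genes (vertical axis, mutant minus wild-type P56, log2(FPKM + 1)) against its mean level over the 4 P56 libraries (horizontal axis, same scale), with each point a gene, red called higher and blue called lower. The 12 largest rises and falls that met the naming rule are labelled; *Cd207* is the lowest point at -5.55, and several hair keratins lie on the line that genes at 0 in wild-type libraries form.

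The largest fall of all tested genes was that of langerin. *Cd207* (ENSMUSG00000034783.7, chromosome 6, 83671215 to 83677857  on GRCm38, as for all positions) stood at 765 and 735 FPKM in the wild-type libraries and at 14.4 and 15.6 FPKM in the mutant libraries (log2 change -5.55 ± 0.056 SE, adjusted p = 1.39e-08). Of 10 Langerhans cell genes, 7 fell and 0 rose, with a median change of -2.01. *Mfge8*, whose product bridges apoptotic cells to phagocytes, went from 446 and 414 FPKM in wild-type to 49.1 and 54.7 FPKM in mutant libraries (log2 change -3.03 ± 0.071 SE, adjusted p = 1.06e-07). *Cldn1*, a tight junction gene that Langerhans cells use to reach through the epidermal barrier, went from 83.7 and 83.1 to 9.12 and 9.77 FPKM (-3.01). Both mutant libraries were far below both wild-type libraries in all 3 genes. *Il1r2*, the decoy receptor of interleukin 1, was among the abundant transcripts of wild-type cells at 1009.5 and 957 FPKM and stood at 208 and 236 FPKM in mutant cells (-2.14). *Epcam* (-2.01) and *Ltc4s* (-2.02) fell too, while *Itgae* (-0.90), *Cd1d1* (0.71) and *Cd24a* (0.31) did not pass. Keratinocytes, which share *Epcam* and *Cldn1* with Langerhans cells, are present in these libraries and their markers were lower in the mutant too, 1294 to 1369 FPKM in sum against 2127 to 2270.1 FPKM. The part of keratinocytes in both values was not tested.

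The other large falls were in genes of mixed function. *Tbc1d4*, a regulator of glucose transporter traffic, went from 193 and 189 to 11 and 11.6 FPKM (-3.96), and *Mest*, an imprinted gene, from 144 and 140.2 to 9.76 and 9.45 FPKM (-3.75). The nonclassical MHC genes *H2-M2* and *H2-M5* changed by -3.36 and -3.19, with *H2-M2* at 213 and 211 FPKM in wild-type and 19.2 and 20.3 FPKM in mutant libraries. These H2 genes have close relatives in the genome, so reads may be shared among them. The others of the 12 largest falls were *F830045P16Rik* (-4.03), *P2rx2* (-3.72), an ATP-gated channel gene, *Cyp4f37* (-3.67), *Col16a1* (-3.44), *Slc36a2* (-3.32), *Hapln3* (-3.22) and *Kirrel3* (-3.12). In each of the 12 the mutant libraries also stood below the wild-type P30 libraries. Separation from the wild-type P56 libraries was part of the rule that named these genes. Of all tested genes, 508 were called lower against both wild-type ages.

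T cell genes moved in both directions. Wild-type cells carried *Cd3g*, a subunit of the CD3 complex of every T cell, at 4381 and 4419.8 FPKM and mutant cells at 1963 and 1896 FPKM (-1.19). *Cd3e* went from 885 and 959 to 241 and 239.8 FPKM (log2 change -1.93 ± 0.054 SE, adjusted p = 1.75e-07), and *Cd247*, the zeta chain gene, from 939 and 906 to 266 and 282 FPKM (-1.75). Of 16 T cell genes 6 fell, among them *Cd3d* (-1.1) and *Thy1* (-1.38), and 3 rose, against a background of 8.22% lower and 12.7% higher. The 3 that rose, *Cd6* (13.4 and 15.3 to 47 and 49.8 FPKM, 1.69), *Cd5* (14.2 and 13.8 to 39.5 and 38.7 FPKM, 1.42) and *Cd28* (1.12, and 0.93, no longer called, with libraries scaled to the same sum), encode surface receptors of T cells. The median over the 16 genes was -0.83.

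Cytotoxic genes also moved in both directions. *Nkg7*, a granule protein gene, was at 3168 and 3135 FPKM in wild-type and 1191 and 1277 FPKM in mutant libraries (-1.35). *Prf1*, the perforin gene, went from 385 and 369 to 114 and 125 FPKM (-1.65) and the chemokine gene *Xcl1* from 1793 and 1778 to 862 and 858 FPKM (-1.05). *Areg*, which encodes the epidermal growth factor family member amphiregulin, fell with them from 566 and 543 to 124 and 119 FPKM (log2 change -2.18 ± 0.052 SE, adjusted p = 1.14e-07). In contrast, *Cd8a*, a chain of the co-receptor of cytotoxic αβ T cells, rose from 3.76 and 3.44 to 32.1 and 32.1 FPKM (log2 change 2.85 ± 0.092 SE, adjusted p = 3.04e-07) and *Cd8b1* from 7.31 and 6.34 to 35.9 and 34.9 FPKM (2.22). The granzyme genes *Gzma* (2.47) and *Gzmb* (2.01) and the interferon gene *Ifng* (1.81) rose as well, *Ifng* from 14.6 and 15.1 to 56.5 and 52.6 FPKM. Of 16 cytotoxic and natural killer cell genes 9 rose and 3 fell. The summed FPKM of this list was lower in the mutant, 3064 to 3169 against 6069 to 6139.6, and the 3 that fell were among its most abundant members.

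Genes of regulatory T cells, which restrain other T cells, rose in 7 of 11 cases and fell in 0 (median 1.14). *Ctla4*, an inhibitory receptor, went from 10.7 and 10.4 to 86.7 and 91.8 FPKM (log2 change 2.97 ± 0.087 SE, adjusted p = 1.97e-07) and *Tnfrsf4*, the OX40 receptor gene, from 29.1 and 30.1 to 159 and 178 FPKM (2.47). *Foxp3*, the transcription factor gene that defines these cells, was low in both groups, at 1.95 and 2.27 FPKM in wild-type and 7.64 and 6.69 FPKM in mutant libraries (1.39). *Lrrc32* (1.49) and *Ccr8* (1.41) also rose, while *Ikzf2* (-0.18), *Tnfrsf18* (0.19) and *Tigit* (-0.61) did not pass. Activated T cells of other kinds carry *Ctla4* and *Tnfrsf4* too.

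Interleukin 17 had the largest rise of the 32 cytokine genes tested. *Il17a* (ENSMUSG00000025929.4, chromosome 1, 20730905 to 20734496) stood at 15 and 15.8 FPKM in the wild-type and 298 and 287 FPKM in the mutant libraries (log2 change 4.16 ± 0.072 SE, adjusted p = 5.18e-08). The gene of its close relative *Il17f* rose from 13.5 and 14.4 to 85 and 85 FPKM (2.53). Both mutant libraries exceeded both wild-type libraries in each gene of this pair. *Sox13* (2.62), *Blk* (2.74) and *Cd163l1* (2.13), which mark interleukin 17-producing γδ T cells, rose too, as did *Ccr6* (1.72) and *Il23r* (1.66). In total 8 of 12 genes of the list rose. *Il22*, often made beside interleukin 17, went the other way, from 9.39 and 8.11 to 1.61 and 1.81 FPKM (-1.84), and the receptor gene *Il1r1* stood at 7.07 and 6.77 FPKM in wild-type and 7.51 and 6.31 FPKM in mutant libraries (-0.0057).

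Of 12 genes of group 2 innate lymphoid cells, 6 rose and 0 fell. The summed FPKM of this list was lower in the mutant, at 982 to 1025 in mutant and 1188 to 1215 in wild-type P56 libraries. *Arg1*, an arginine-degrading enzyme gene that macrophages also express, led with 1.34 and 1.79 FPKM in wild-type and 43.2 and 48.3 FPKM in mutant libraries (log2 change 4.19 ± 0.12 SE, adjusted p = 1.80e-07). *Il5* (1.49), *Il17rb* (1.62) and *Il1rl1* (1.33), a receptor gene for interleukin 33, rose at low levels. *Gata3* (0.27) and *Il13* (-0.60) did not pass. B and plasma cell genes, of which *Blnk* was highest at 29.6 and 30.0 FPKM in the mutant libraries, rose in 9 of 10 cases (median 1.8). *Jchain*, which joins secreted antibodies, was listed at 0 in both wild-type libraries and at 12.4 and 13.6 FPKM in the mutant ones, and the receptor chain gene *Cd79a* went from 3.86 and 3.48 to 20.5 and 23.3 FPKM (2.29).

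**Figure D2:**
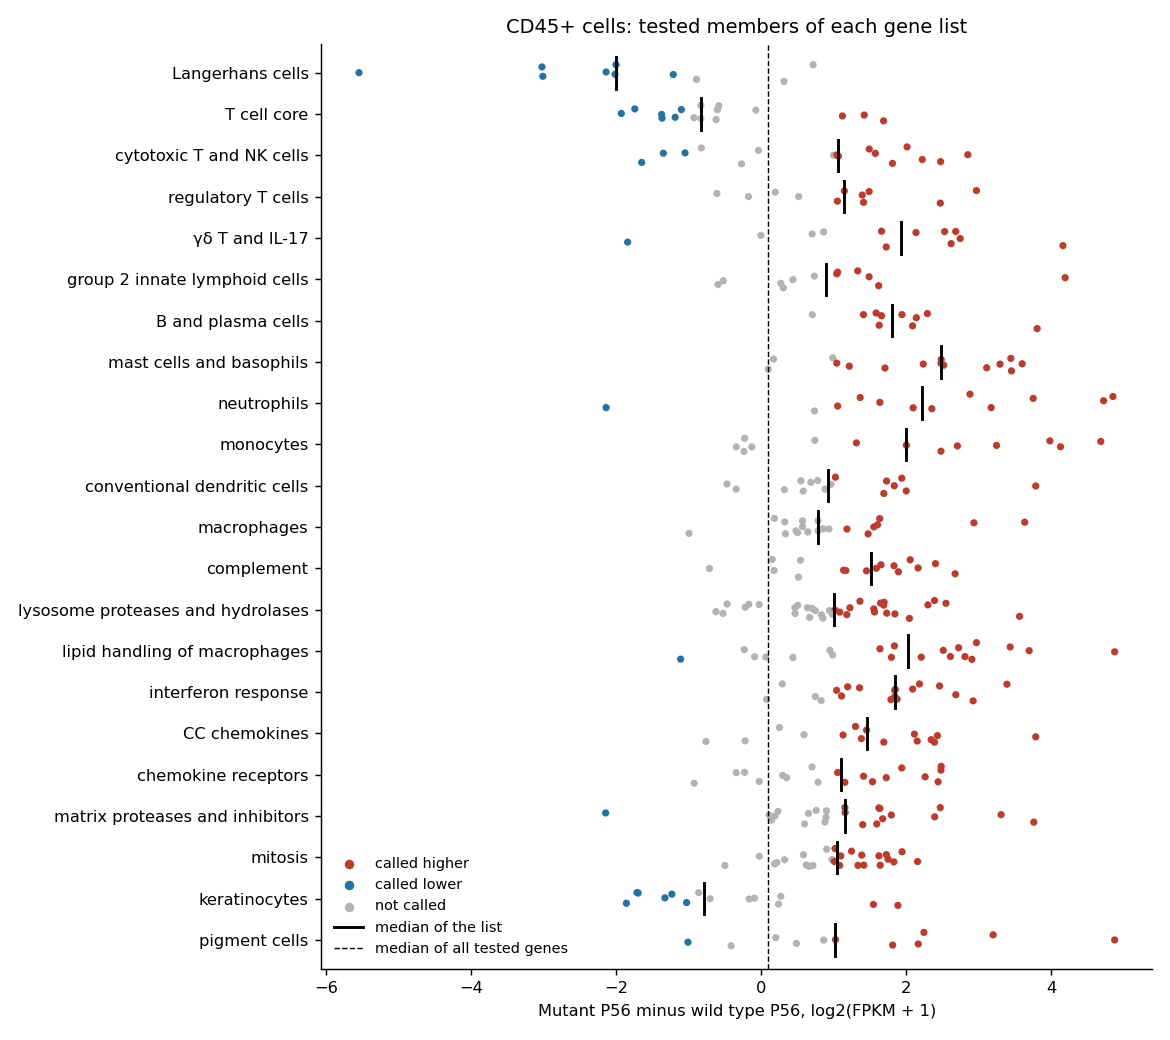
Change of each tested member (points, mutant minus wild-type P56, log2(FPKM + 1)) of 22 gene lists, coloured by call, with the median of each list as a solid bar and the median of all tested genes as a dashed line. Medians run from -2.01 (Langerhans cells) to 2.48 (mast cells), with T cell core and keratinocytes also left of the dashed line.

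Most genes of neutrophils and monocytes, which enter skin from the blood, rose. *S100a8* and *S100a9*, which encode the calprotectin subunits of neutrophils and monocytes, were among the 12 largest rises. *S100a8* stood at 24.9 and 21 FPKM in wild-type and 690.5 and 685 FPKM in mutant libraries (log2 change 4.85 ± 0.078 SE, adjusted p = 4.99e-08), and *S100a9* at 21.9 and 18.6 FPKM in wild-type and 541 and 578 FPKM in mutant libraries (4.72). Of 12 tested neutrophil genes 10 rose, among them *Trem1* (3.75) and the granule gene *Ngp* (3.17), and 1 fell, the decoy receptor *Il1r2* already named. The genes that define the mature neutrophil stayed low, with *Ly6g* listed at 0 in the wild-type libraries and at 1.97 and 1.23 FPKM in the mutant ones, and *Cxcr2* at 0.36 and 0.45 FPKM in wild-type and 2.02 and 1.81 FPKM in mutant libraries, a call lost under each rescaling. *Mpo* and *Elane*, made by precursors in the bone marrow, were at or near 0 in all P56 libraries.

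Monocyte genes rose in 8 of 13 cases and fell in 0 (median 2.0). *Ly6c2*, the antigen of inflammatory monocytes, went from 48.8 and 43.3 to 708 and 775 FPKM (log2 change 3.98 ± 0.083 SE, adjusted p = 7.55e-08) and *Plac8* from 19.8 and 22.9 to 378 and 399 FPKM (4.13). *Chil3*, a chitinase-like protein gene of monocytes and macrophages, went from 5.15 and 4.06 to 132 and 153 FPKM (4.68). The chemokine receptor gene *Ccr2*, which monocytes use to leave the blood, rose with them from 33.4 and 36 to 197 and 198 FPKM (2.48). *Hp*, the haptoglobin gene, was the third largest rise, from 1.54 and 1.66 to 97 and 108 FPKM (5.31).

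Mast cell genes rose in 12 of 15 cases, with a median of 2.48. Of the 16 genes on this list 4 were at 0 in both wild-type P56 libraries, and such a gene could be tested only through the mutant libraries. *Cma1*, the gene of a mast cell chymase, went from 29.1 and 27.2 to 337 and 367 FPKM (log2 change 3.6 ± 0.067 SE, adjusted p = 5.68e-08), the tryptase gene *Tpsb2* from 24.2 and 25.2 to 275 and 282 FPKM (3.44) and the carboxypeptidase gene *Cpa3* from 23 and 23.2 to 228 and 243 FPKM (3.29). *Fcer1a*, a chain of the receptor for immunoglobulin E, was listed at 0 in both wild-type libraries and at 8.8 and 11.2 FPKM in the mutant ones. The wild-type P30 libraries stood between the P56 groups for the proteases, with *Cma1* at 204 and 218 FPKM. Of 4 tested eosinophil genes 1 rose, *Prg2*, at 2.28 and 1.57 FPKM in the mutant libraries.

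Of dendritic cell genes 7 of 16 rose, led by *Ccl17*, a chemokine gene that draws T cells, from 2.52 and 2.22 to 43.8 and 47.1 FPKM (log2 change 3.79 ± 0.10 SE, adjusted p = 1.45e-07), *Tnfsf9* (2.0) and the migration receptor gene *Ccr7* (1.94). MHC class II genes, which present peptides to helper T cells, mostly did not pass. *Cd74*, the invariant chain gene, was at 8261 and 8034 FPKM in wild-type and 10674 and 11018 FPKM in mutant libraries (0.41), a difference whose sign turned under quantile normalization, and *H2-Aa* at 4179.9 and 4098 FPKM in wild-type and 5288 and 5499 FPKM in mutant libraries (0.38). The 2 of 13 that rose (15.4%, near the background of 12.7%), *Cd40* (1.65) and *Cd80* (1.21), are costimulatory rather than presenting molecules. Of 13 MHC class I and processing genes 3 rose, the regulator gene *Nlrc5* (1.57) and the immunoproteasome genes *Psmb8* (1.48) and *Psmb9* (1.15), of which *Psmb9* lost its call with libraries scaled to the same sum.

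Macrophage genes rose unevenly. *Adgre1* (F4/80) and *Csf1r*, which mark most macrophages, stood at 58.2 and 56 against 69.9 and 74.6 FPKM (0.33) and at 149 and 139.6 against 172 and 189.6 FPKM (0.32), below the 2-fold limit. *Fcgr1*, a high-affinity antibody receptor gene, rose from 5.27 and 4.6 to 70.7 and 74.5 FPKM (log2 change 3.63 ± 0.090 SE, adjusted p = 1.33e-07) and *Cd14*, a co-receptor for bacterial lipopolysaccharide, from 153 and 139 to 1092 and 1149 FPKM (2.93). *Cd163*, a haemoglobin scavenger receptor gene of resident macrophages, was lower in the mutant at 8.92 and 8.59 against 18.1 and 18.9 FPKM, just short of 2-fold (-1.0). Of 20 macrophage genes 7 rose and 0 fell (median 0.78).

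Genes of lipid handling, lysosomes, complement and phagocytosis had medians of 2.02, 1.0, 1.52 and 1.39. *Gpnmb*, a lysosomal glycoprotein gene of lipid-laden macrophages that pigment cells also express, went from 0.68 and 1.05 to 53.2 and 53.7 FPKM (log2 change 4.87 ± 0.11 SE, adjusted p = 8.72e-08). *Trem2*, a lipid-sensing receptor gene, went from 7.09 and 8.98 to 108 and 123 FPKM (log2 change 3.69 ± 0.11 SE, adjusted p = 2.49e-07), and the scavenger receptor gene *Msr1* from 1.55 and 1.3 to 24.6 and 25.8 FPKM (3.43). In these 3 genes the lowest mutant library was above the highest wild-type library of either age. Of 20 lipid handling genes 13 rose (median 2.02), among them *Nr1h3* (2.97), the liver X receptor gene, and the lipid droplet gene *Plin2* (2.72), while the cholesterol exporters *Abca1* (-0.24) and *Abcg1* (0.061) did not pass and *Ch25h* (-1.11), which makes a hydroxylated cholesterol, fell, a call lost without mutant replicate 1 (-0.99). Of 34 lysosomal genes 17 rose and 0 fell, with *Ctss*, a protease of antigen processing, at 405 and 394 against 2069 and 2127 FPKM (2.39), *Lgmn* (2.55) and *Acp5* (3.56). Complement genes rose in 11 of 16 cases, *C1qb* from 333 and 314 to 1404 and 1499 FPKM (2.16), with *C3* (2.67), *C5ar1* (2.4) and *Serping1* (2.05). Scavenger and antibody receptors rose in 12 of 20 cases, led by *Fcgr4* (3.76). Iron and haem genes rose in 4 of 14 cases, and *Tfrc*, the transferrin receptor gene, fell (-1.11). The rises were the ferritin gene *Ftl1* at 4182 and 4030.3 against 10387 and 10389.8 FPKM (1.34), the iron transporter gene *Slc11a1* (2.68) and *Blvra* (1.26), and *Lcn2* listed at 0 in wild-type and at 8.67 and 6.83 FPKM in mutant libraries. *Ftl1* has processed copies in the genome, so its value is uncertain. Subunits of the vacuolar ATPase, the proton pump of lysosomes, rose in 2 of 16 cases (12.5%, near the 12.7% of all tested genes), with *Atp6v0d2*, the subunit of osteoclasts and some macrophages, at 0.40 and 0.37 against 7.66 and 9.45 FPKM (2.78), and *Atp6v0a1* (1.02), which fell under the 2-fold limit under each of the 3 rescalings of the libraries and without wild-type replicate 1 or mutant replicate 1 (0.997 and 0.95).

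Osteopontin rose as well. Pigment cell transcripts such as *Dct* were also higher in the mutant CD45+ libraries, and the part of pigment cells in the *Spp1* value was not tested. *Spp1* (ENSMUSG00000029304.14, chromosome 5, 104435118 to 104441050) was the 12th largest rise. It stood at 17.3 and 16.1 FPKM in the wild-type and 402 and 445 FPKM in the mutant libraries (log2 change 4.58 ± 0.084 SE, adjusted p = 5.68e-08, 95% interval 4.39 to 4.78). The wild-type P30 libraries stood at 22.1 and 19.4 FPKM, so that both mutant libraries were far above all 4 wild-type libraries. Of the 8 tested genes of osteopontin and its receptors, the integrin subunit genes *Itga4* (2.32 and 2.32 to 8.05 and 8.48 FPKM, 1.48) and *Itga5* (1.43) rose with it. *Cd44* was lower in the mutant, at 186 and 185 against 329.9 and 337 FPKM (log2 change -0.84 ± 0.047 SE, adjusted p = 3.67e-06), and passed the 2-fold limit under 2 of the 3 rescalings of the libraries. Osteoclast-like genes rose in 7 of 11 cases, with *Acp5* at 8.05 and 8.0 against 100 and 111 FPKM and the protease gene *Ctsk* at 2.48 and 1.81 against 11.7 and 12 FPKM (2.04). The 1 that fell was the gelatinase gene *Mmp9*, from 77.7 and 77.9 to 15.8 and 17.8 FPKM (-2.15).

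**Figure D3:**
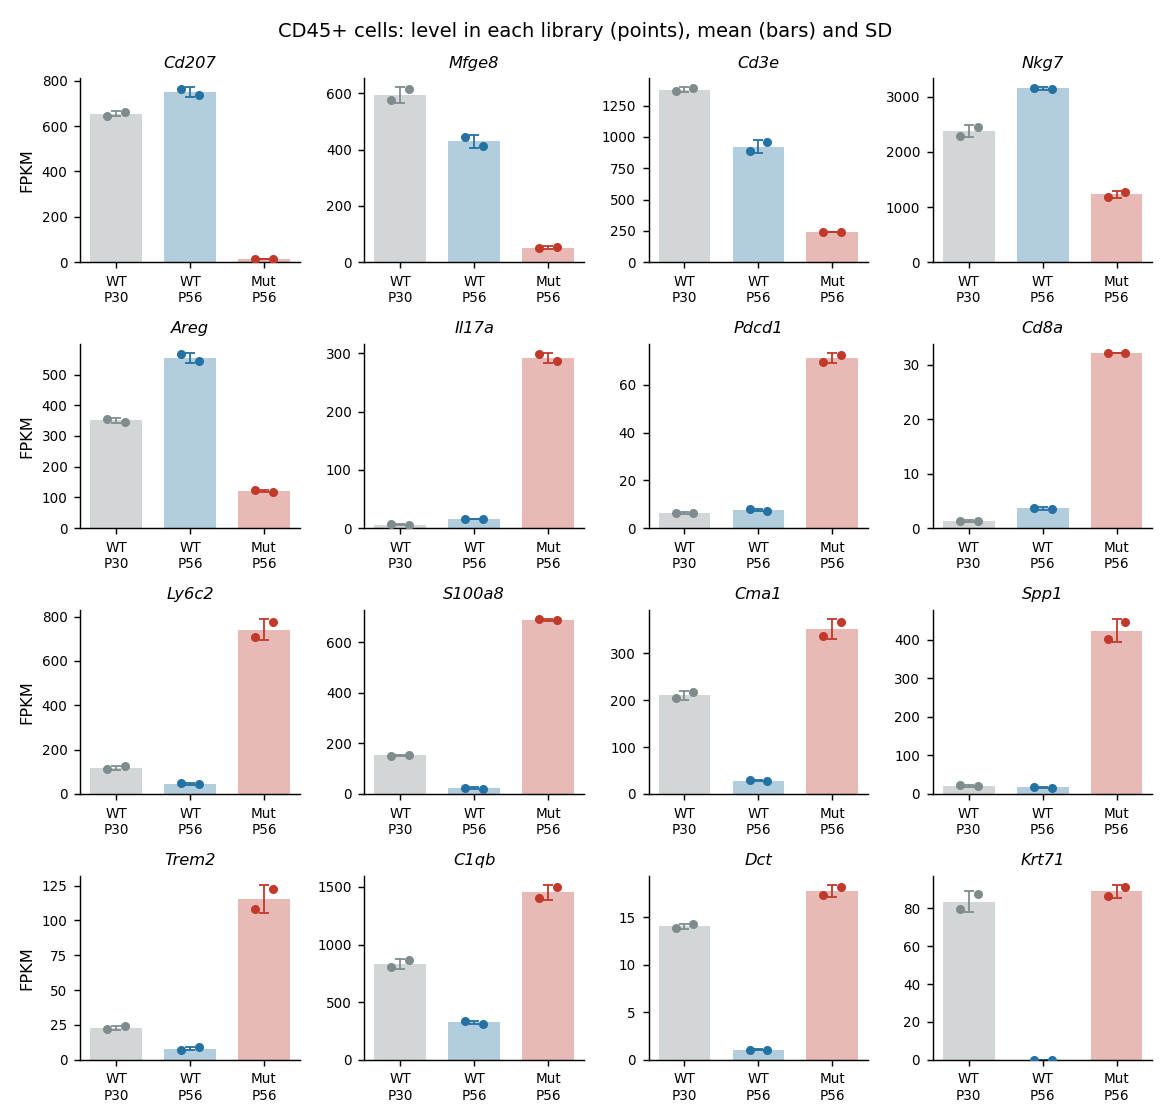
Levels (FPKM, vertical axes from 0) of 16 genes in the 6 CD45+ libraries, by group on the horizontal axis (WT, wild type; Mut, mutant); points are libraries, bars means and error bars SD (n = 2). *Cd207*, *Mfge8*, *Cd3e*, *Nkg7* and *Areg* are lowest in the mutant libraries and the other 11 genes highest there, although *Dct* and *Krt71* are nearly as high in the P30 wild-type libraries.

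Of 15 CC chemokine genes 11 rose and 0 fell (median 1.45). *Ccl5*, a T cell and monocyte attractant, went from 151 and 156 to 815 and 801 FPKM (log2 change 2.39 ± 0.050 SE, adjusted p = 7.55e-08), *Ccl4* from 129 and 128 to 672 and 718 FPKM (2.43) and *Ccl3* from 39.4 and 46.8 to 241 and 204 FPKM (2.34). *Ccl27a*, which epithelia make, stood at 249 FPKM in wild-type and 213 FPKM in mutant libraries on average and did not pass (-0.22). Of 12 genes of CXC and other chemokines, which draw neutrophils and T cells, 6 rose and 1, *Xcl1*, fell. Among those that rose were *Cxcl1* at 54.8 and 62.3 against 269 and 253 FPKM (2.14), *Cxcl3* (3.54), *Ppbp* (2.73) and *Cxcl9* (1.84). The list summed to 2389 to 2490 FPKM in mutant and 2496 to 2513 FPKM in wild-type P56 libraries. Chemokine receptor genes rose in 10 of 18 cases, among them *Ccr1* (2.48) and *Cxcr4* (2.44) beside *Ccr2*.

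Among 32 interleukin and other cytokine genes 15 rose and 2 fell. *Il1b*, the gene of a main inflammatory cytokine, went from 81.8 and 80.4 to 601 and 632 FPKM (log2 change 2.91 ± 0.049 SE, adjusted p = 4.99e-08), and its antagonist *Il1rn* from 22 and 24.8 to 152 and 153 FPKM (2.65). *Osm*, the oncostatin M gene, went from 10.3 and 11 to 113 and 111 FPKM (3.28). *Il1b* was also high in the wild-type P30 libraries, at 447 and 451 FPKM, where *Osm* was at 22.5 and 24.3 FPKM. *Il10*, an anti-inflammatory cytokine gene, averaged 9.87 FPKM in wild-type and 63.7 FPKM in mutant libraries (2.57). *Tnf* was at 135 and 142 against 114 and 117 FPKM (-0.26, adjusted p = 0.00307), under the 2-fold limit. Of the 2 that fell, *Il34*, a ligand of the CSF1 receptor that supports Langerhans cells, averaged 19.6 FPKM in wild-type and 7.58 FPKM in mutant libraries (-1.26), while *Csf1*, the other ligand of that receptor, averaged 0.23 FPKM in wild-type and 6.04 FPKM in mutant libraries (2.51). Cytokine receptor genes rose in 8 (4 under each rescaling) and fell in 2 of 28 cases. These shares, 28.6% higher and 7.14% lower, stand beside 12.7% and 8.22% of all tested genes, and the 4 under rescaling are nearer to the background. *Il2rb*, a receptor subunit for interleukins 2 and 15, fell from 878 and 815 to 248 and 275 FPKM (-1.69), and *Csf3r* (2.88), the receptor gene for the neutrophil growth factor G-CSF, and *Csf2ra* (1.46) rose.

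**Figure D4:**
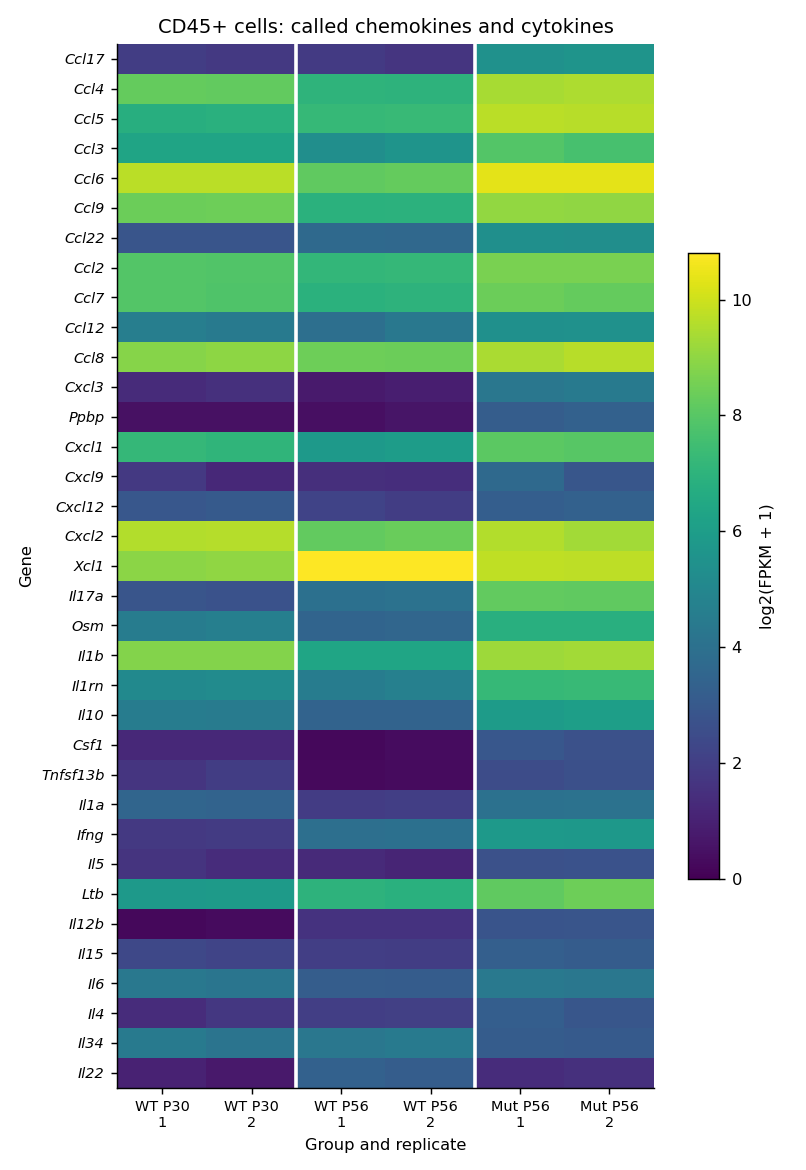
Level, as colour on the log2(FPKM + 1) scale, of the 35 called chemokine and cytokine genes (rows) in the 6 CD45+ libraries (columns, 2 per group). Of these genes 32 are brighter in the mutant than in the wild-type P56 columns, and *Xcl1*, *Il34* and *Il22* are darker.

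Growth factor and morphogen genes, which signal to the epithelium and stroma, rose in 7 and fell in 2 of 29 cases. These shares are 24.1% and 6.90%, beside 12.7% higher and 8.22% lower of all tested genes. *Gdf15*, a stress-induced factor gene, went from 23.6 and 23.3 to 90.7 and 107 FPKM (2.03) and *Jag1*, a Notch ligand gene, from 2.32 and 2.76 to 11.1 and 10.5 FPKM (1.74). *Inhba*, the activin A subunit gene, was at 0.080 and 0.21 FPKM in wild-type P56, 6.53 and 6.9 FPKM in mutant and 8.47 and 8.34 FPKM in wild-type P30 libraries (2.75). Of 9 tested antagonists and IGF-binding proteins 3 rose, *Igfbp7* (1.7), *Dkk3* (2.42) and the WNT antagonist *Wif1*, listed at 0 in the wild-type P56 libraries and at 10.3 and 11 FPKM in the mutant ones. *Wif1* stood at 17.8 and 18.6 FPKM in wild-type P30 libraries. Matrix proteases and their inhibitors rose in 12 of 23 cases (median 1.15), with the macrophage elastase gene *Mmp12* at 15.9 and 13.4 against 205 and 215 FPKM (log2 change 3.76 ± 0.13 SE, adjusted p = 4.86e-07), *Timp1* (3.31), *Mmp19* (2.47) and *Timp3* (2.39).

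Interferon response genes, which cells switch on through interferon-stimulated response elements in their promoters, rose in 15 of 19 cases and fell in 0 (median 1.84). *Mx1*, an antiviral GTPase gene, went from 0.47 and 0.54 to 14.4 and 15.1 FPKM (3.39), and could be called only as higher. *Oas1a* and *Oasl2*, of the oligoadenylate synthetase family, went from 10.2 and 10.2 to 81.2 and 86.5 FPKM (2.92) and from 7.02 and 6.71 to 51.1 and 47.9 FPKM (2.68), and *Ifit3* from 4.56 and 4.56 to 27.2 and 32.1 FPKM (2.46). In all 4 the mutant libraries were above both wild-type ages. *Isg15* (0.29), *Stat2* (0.74), *Bst2* (0.073) and *Cxcl10* (0.82) did not pass. The Oas and Ifit genes have close paralogs, so reads may be shared among members.

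The promoters of *Oas1a* and *Ifit3*, among the 4 largest rises of this list, are shown so that the element can be seen. The windows are the 250 bases before the RefSeq start (GRCm38.p6), given 5′ to 3′ on the strand of the gene, with matches to the letters GAAA, any 2 bases and GAAA again, or TTTC, any 2 bases and TTTC for the other strand, in capitals. *Oas1a* is on the minus strand (chr5:120907526-120907775) and *Ifit3* on the plus strand (chr19:34583279-34583528).
Oas1a: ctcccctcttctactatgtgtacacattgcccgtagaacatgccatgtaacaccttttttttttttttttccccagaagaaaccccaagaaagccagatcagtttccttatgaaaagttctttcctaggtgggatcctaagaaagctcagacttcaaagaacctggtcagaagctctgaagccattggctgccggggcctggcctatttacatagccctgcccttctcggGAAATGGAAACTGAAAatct
Ifit3: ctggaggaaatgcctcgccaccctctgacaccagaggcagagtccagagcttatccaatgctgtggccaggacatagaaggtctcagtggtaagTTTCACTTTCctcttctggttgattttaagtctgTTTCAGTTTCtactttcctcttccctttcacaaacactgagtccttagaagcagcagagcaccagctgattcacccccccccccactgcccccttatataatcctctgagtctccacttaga
The *Oas1a* window holds 2 overlapping matches on the strand shown, between 20 and 5 bases before the start, and the *Ifit3* window 2 separate matches on the other strand, between 156 and 113 bases before it. The *Oasl2* window holds no match. The letters occur in 2.98% of 32851 such windows. Counted by gene, they occur in 3.36% of the 9277 tested genes with a window, and in 10 of the 15 tested interferon response genes that have one. Of the 11 that rose and have a window 6 hold the letters, and so do all 4 that did not pass.

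Of 15 NF-κB target genes 1 rose, *Ptgs2* (1.16), which lost its call at an equal sum, and 1 fell, *Tnfaip2*, from 194 and 191 to 32.6 and 23.8 FPKM (-2.75). These shares, 6.67% higher and 6.67% lower, were below the 12.7% and 8.22% of all tested genes. The list had a median of 0.17, which turned negative when libraries were scaled to the same sum. Genes of alternative macrophage activation rose in 5 of 15 cases, which were *Chil3*, *Arg1*, *Ccl17*, *Ccl22* (1.69) and *Clec10a* (1.18), the last of which lost its call with libraries scaled to the same sum (0.98). Immune checkpoint genes moved both ways, 6 up and 3 down of 12. *Pdcd1*, the PD-1 gene of activated T cells, went from 7.77 and 7.15 to 69.6 and 72.7 FPKM (log2 change 3.09 ± 0.078 SE, adjusted p = 1.37e-07), and *Cd274*, the gene of its ligand PD-L1, averaged 7.25 FPKM in wild-type and 21.4 FPKM in mutant libraries (1.44). *Lag3*, another inhibitory receptor gene, fell from 246 and 241 to 56.7 and 59.5 FPKM (log2 change -2.05 ± 0.074 SE, adjusted p = 5.29e-07), as did *Cd96* (-1.61) and *Havcr2* (-1.5).

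Of 26 mitosis genes 15 rose and 0 fell (median 1.05), with *Birc5* at 8.84 and 6.98 against 38.7 and 38.2 FPKM (log2 change 2.15 ± 0.11 SE, adjusted p = 2.73e-06), *Ube2c* (1.94), *Ccnb1* (1.83) and *Ccnb2* (1.75). *Mki67* was low, at 2.2 and 1.96 FPKM in wild-type and 3.69 and 3.52 FPKM in mutant libraries, and did not pass (0.58, adjusted p = 0.00245). DNA replication genes rose in 4 of 26 cases (15.4%, near the 12.7% of all tested genes), and in 9 without mutant replicate 1, *Rrm2* among the 4 (1.6), while *Rrm1*, which encodes the partner subunit of ribonucleotide reductase, fell from 77.6 and 77.2 to 17.1 and 17.6 FPKM (-2.09). Of 14 cell cycle inhibitor and p53 target genes 0 rose and 2 fell (14.3%, beside 8.22% of all tested genes), *Gadd45a* (-1.92) and *Sesn2* (-1.43). Glycolysis and hypoxia genes rose in 2 and fell in 1 of 20 cases, no more than the share of all tested genes, with the lactate exporter gene *Slc16a3* (2.5) and *Eno1* (1.29) up and the hexokinase gene *Hk2* down, from 129 and 137 to 37.4 and 28.5 FPKM (-1.99). Oxidative stress genes rose in 4 of 16 cases, *Slc7a11* (2.25), *Gpx1* (1.97), *Gpx3* (1.37) and *Prdx1* (1.21), and immediate early and heat shock genes, which respond to tissue digestion, in 2 of 20, *Hspa1a* (1.51) and *Hsph1* (1.07), the second of which lost its call under each rescaling and without wild-type replicate 1 (0.999). Their share of 10% is below that of all tested genes.

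*Nras* itself was at 31.1 and 30.5 FPKM in wild-type and 40.4 and 39.1 FPKM in mutant libraries, under the 2-fold limit (log2 change 0.36 ± 0.061 SE, adjusted p = 0.00126). The sources do not say if transgene reads were assigned to this gene, and the values check no label. Of 16 genes of the MAPK pathway downstream of it and its feedback 1 rose and 2 fell. These shares are 6.25% and 12.5%, beside 12.7% and 8.22% of all tested genes. The 1 that rose, *Dusp4* (1.06), lost its call under each rescaling and without wild-type replicate 2 (0.94) or mutant replicate 2 (0.89). The 2 that fell were the feedback inhibitors *Spry2*, from 289 and 334 to 119 and 112 FPKM (-1.42), and *Spry4* (-1.53).

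Transcripts of cells that are not leukocytes were present in these libraries and moved with the genotype, and their part in the results above was not tested. Keratinocyte markers were read in every library, with a summed level of 1294 to 1369 FPKM in mutant, 2127 to 2270.1 FPKM in wild-type P56 and 3626 to 3744 FPKM in wild-type P30 libraries, and none at 0. *Krt14* stood at 677 and 599 FPKM in wild-type and 335 and 364 FPKM in mutant libraries (-0.86), and *Krt5* fell from 249.9 and 236 to 117 and 119.9 FPKM (-1.03), a call lost without wild-type replicate 1 (-0.99). Of 14 keratinocyte genes 6 fell, with *Cdh1* (-1.86), *Krt10* (-1.72) and *Krt1* (-1.7) the lowest, and 2 rose, *Krt6a* (1.55) and *Krt17*, a keratin of the follicle outer sheath, from 47.8 and 40.2 to 156 and 173 FPKM (1.88).

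Keratins of the growing hair were listed at 0 in the wild-type P56 libraries and were present in the others. *Krt71* (ENSMUSG00000051879.3, chromosome 15, 101733949 to 101743109), a keratin of the inner root sheath, was listed at 0 in both wild-type P56 libraries. It could thus be called only as higher, and no p-value is given for it. Mutant libraries held it at 86.5 and 91.5 FPKM, while wild-type P30 libraries held it at 79.5 and 87.4 FPKM. *Krt35*, of the hair cortex and cuticle, was at 0 in the first, at 54.8 and 62 FPKM in the second and at 66.4 and 69.3 FPKM in the third of these groups. *Krt25*, *Krt27*, *Krt28* and *Krtap8-1* were also at 0 in both wild-type P56 libraries and among the 12 largest rises, so that 6 of these 12 are hair genes. A list of hair shaft and inner root sheath genes drawn up after these values were seen summed to 333 to 349 FPKM in mutant and 565 to 596 FPKM in wild-type P30 libraries, and 17 of its 19 genes in the table were at 0 in both wild-type P56 libraries. Its members could pass the filter on low values nearly only through the mutant libraries, so no count of calls is given for it.

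Pigment cell genes rose in 6 and fell in 1 of 11 tested cases, and summed to 154 to 155 FPKM in mutant, 87.7 to 90.7 FPKM in wild-type P56 and 178 to 182 FPKM in wild-type P30 libraries. *Dct*, an enzyme gene of melanin synthesis, was at 1.02 and 1.07 FPKM in wild-type P56, 17.3 and 18.2 FPKM in mutant and 13.9 and 14.3 FPKM in wild-type P30 libraries (3.2). *Mlana* (2.24), *Pmel* (2.17) and *Tyrp1* (1.81) rose with it, and *Tyr* was at 0.48 and 0.47 FPKM in the mutant libraries. *Gpnmb* and *Mitf* (1.02), which lost its call under each rescaling, are expressed by macrophages too, and *Rab27a* (-1.01), which fell, by T cells. *Rab27a* lost its call without wild-type replicate 2 (-0.99), as did *Mitf* (0.99), which also lost it without mutant replicate 1 (0.97). Fibroblast genes rose in 4 of 9 cases, *Dcn* from 7.47 and 8.12 to 54.8 and 59.6 FPKM (2.73), *Col1a2* (1.74), *Col3a1* (1.27) and *Mfap5* (1.21), and the list summed to 134 to 139 FPKM in mutant and 92 to 96.7 FPKM in wild-type P56 libraries. Endothelial genes rose in 1 of 5 cases with *Egfl7* (1.67), and in 3 without wild-type replicate 1, mural and muscle genes in 3 of 6 with *Acta2* (1.94), *Myl9* (1.52) and *Acta1* (1.51). *Cspg4* (-1.05), a pericyte gene, fell. Adipocyte genes rose in 1 of 3 cases, *Fabp4* (2.91), which macrophages also express. Schwann cell genes fell in 3 of 6 cases, among them *Egfl8* (-2.08) and *Pmp22* (-1.21). All 4 tested globin genes fell, *Hba-a2* from 22.9 and 16.2 to 5.87 and 4.84 FPKM (-1.68), *Hba-a1* (-2.18), *Hbb-bs* (-1.54) and *Hbb-bt* (-1.37). Without mutant replicate 1 *Hbb-bs* was at -0.98 and lost its call. The α and the β globin gene pairs are near copies of each other whose reads cannot be told apart with certainty.

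Wild-type P30 cells, from skin with growing follicles, were a further reference for the mutant P56 cells, one that differs from them in age and sex. This comparison uses the same mutant libraries as the one at P56, so each is given by its own values. Against P30, 2140 genes were called, 17.7% of those tested, 1163 (9.59%) higher and 977 (8.06%) lower in the mutant. The tested genes were chosen by the P56 libraries, so a gene read only at P30 was not tested and could not be called lower. The split became 896 higher and 1199 lower at an equal sum of FPKM, and 999 and 1095 after quantile normalization. Of Langerhans genes 7 of 10 fell here too (median -2.06), with *Cd207* at 646 and 663 FPKM in the P30 libraries (-5.36). *Spp1* (4.29), *Il17a* (5.4), *Pdcd1* (3.3), *Cd8a* (3.85), *Trem2* (2.28), *Ly6c2* (2.64) and *Mmp12* (5.89) rose against both ages. So did 721 of the 1538 genes that rose at P56. Interferon response genes rose in 14 of 19 cases against P30 and 15 against P56, regulatory T cell genes in 10 and 7 of 11, and γδ T and interleukin 17 genes in 8 and 8 of 12.

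Counts of calls differed between the comparisons in other lists. They stand beside different shares of all tested genes called higher, 9.59% against P30 and 12.7% against P56. Mast cell genes rose in 4 of 15 cases against P30 and in 12 against P56, and *Cma1* (0.74) and *Tpsb2* (0.71) did not pass against P30. Complement genes rose in 3 of 16 against P30 and 11 against P56, with *C1qb* at 803 and 864 FPKM in the P30 libraries. Mitosis genes rose in 2 of 26 against P30 and 15 against P56, B and plasma cell genes in 3 and 9 of 10, neutrophil genes in 5 and 10 of 12, and lysosomal genes in 8 and 17 of 34. *Il1b* did not pass against P30 (0.46). *Cd74*, at 21431 and 23076 FPKM in the P30 libraries, was lower in the mutant than at P30 (-1.04, adjusted p = 5.20e-06). Whether the comparisons differ beyond error in these lists was not tested.

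Myeloid cells sorted from the same tissue in separate libraries (2 mutant and 2 wild type at P56) were set beside the CD45+ libraries. Their table was scaled separately, so only the direction within each table is given, without a test. *Spp1* stood at 20.4 and 18.5 FPKM in wild-type and 594 and 581 FPKM in mutant myeloid libraries, *Gpnmb* at 4.9 and 4.04 FPKM in wild-type and 225 and 215 FPKM in mutant libraries, and *Trem2* at 23.8 and 27.6 FPKM in wild-type and 255 and 249 FPKM in mutant libraries. All 3 were higher in the mutant, as among CD45+ cells. Pigment cell transcripts were also higher there, *Mlana* from 0 and 0 to 179 and 176 FPKM and *Dct* from 0.66 and 0.29 to 169 and 164 FPKM, and their part in the *Gpnmb* and *Spp1* values was not tested. *Il17a* was at 0.88 and 0.46 FPKM in wild-type and 4.11 and 3.21 FPKM in mutant libraries. *C1qb* was lower in the mutant myeloid libraries, at 3198 and 3222 FPKM in wild-type and 2708 and 2656 FPKM in mutant myeloid libraries. *Cd207* was higher in the mutant myeloid libraries, at 219 and 226 against 36.9 and 40.5 FPKM, opposite to its fall in CD45+ cells.

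**Figure D5:**
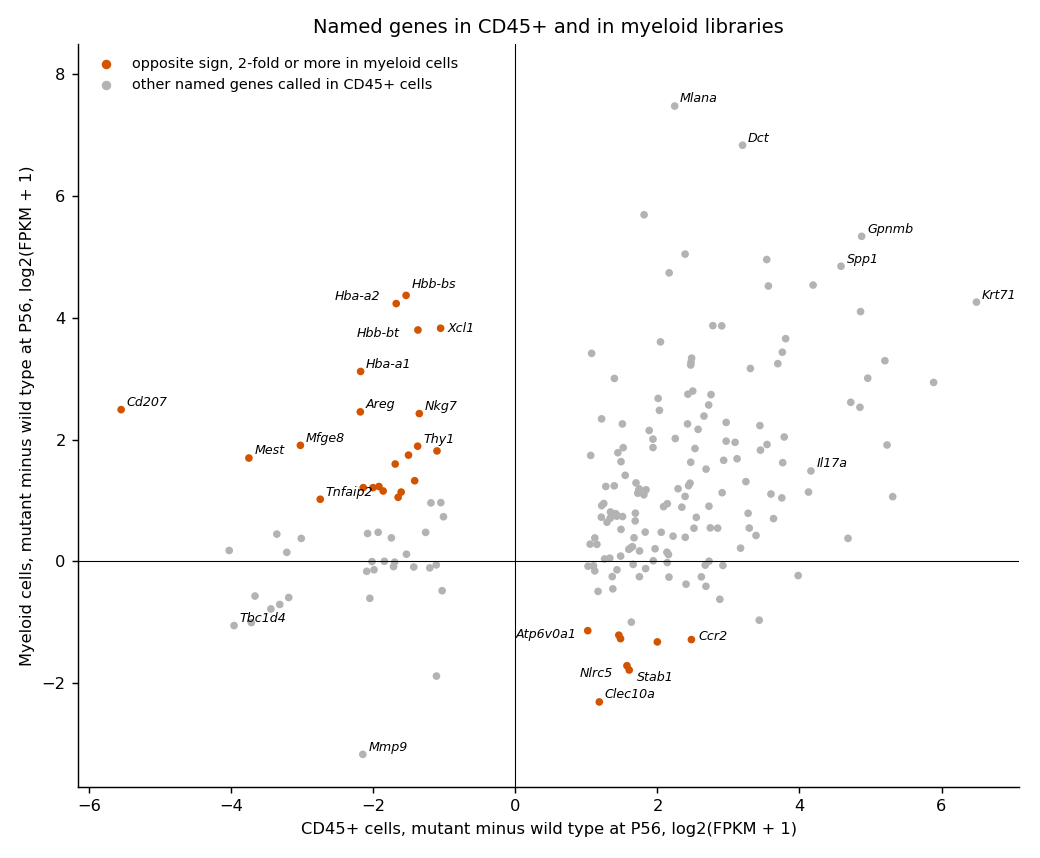
Change in myeloid cells (vertical axis) against change in CD45+ cells (horizontal axis), both mutant minus wild-type P56 in log2(FPKM + 1), for the 211 named genes called in CD45+ cells that the myeloid table holds. Orange points are the 30 genes that moved the other way in myeloid cells by 2-fold or more with libraries that do not overlap, *Cd207* among them at -5.55 and 2.49.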

How the data were processed

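RNA of sorted cells was made into full-length cDNA (Smart-seq2) and sequenced in pairs, and per the labels and methods reads were aligned with STAR 2.4.2 to GRCm38 (mm10). The authors deposited 1 table of RSEM FPKM values for CD45+ cells and 1 for myeloid cells, each scaled separately. Only FPKM were available here, so depth per gene is unknown. Genes of type protein-coding with 1 FPKM in at least 2 of the 4 P56 libraries were kept, and 27 symbols turned into dates were restored. Values were taken as log2(FPKM + 1) and fitted with limma 3.58.1 (R 4.3.3) with a variance trend over the 6 CD45+ libraries. Genes with a Benjamini-Hochberg adjusted p under 0.05 (two-sided) and a change of 2-fold or more were called. The script was tested on simulated data. Replicate numbers did not pair the libraries. Alternatives were another pseudocount, filters, scalings, moderation and samples, and each library left out.

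Named were the 12 largest rises and falls with a mean of 5 FPKM or more in the higher group, up to 4 called members per list by size of change, and 5 fixed genes. Other genes named, among them members that did not pass, and the hair list were chosen after their values were seen. A few list members enter the counts only and are otherwise not reported here. The comparison, the 52 gene lists and their members were chosen with earlier results of these data known. Promoter windows are RefSeq sequences of GRCm38.p6.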

Additional observations from a re-analysis of the deposited data

Results flagged for a closer look

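Of 211 named genes that were called in CD45+ cells and are in the myeloid table, 30 moved the other way in the myeloid libraries at P56, by 2-fold or more and with mutant and wild-type libraries that do not overlap. The share of all called genes that did so was not counted, and part of the named genes were chosen after their values were seen. The count of 30 can thus not be read as many or few. The difference between the cell populations was not tested, since their tables were scaled separately and hold 2 libraries a group.

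Lower in CD45+ cells but higher in myeloid cells of the mutant were the following genes, given by their myeloid log2 change. Langerhans cell genes were *Cd207* (2.49), *Mfge8* (1.91), *Il1r2* (1.21) and *Epcam* (1.21). T and natural killer cell genes were *Xcl1* (3.83), *Nkg7* (2.43), *Thy1* (1.89), *Cd3d* (1.81), *Havcr2* (1.75), *Il2rb* (1.6), *Cd96* (1.14) and *Prf1* (1.05), with *Areg* (2.46). The globin genes were *Hbb-bs* (4.37), *Hba-a2* (4.23), *Hbb-bt* (3.8) and *Hba-a1* (3.12). The others were *Mest* (1.7), *Spry2* (1.32), *Gadd45a* (1.23), *Cdh1* (1.16) and *Tnfaip2* (1.02).

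Higher in CD45+ cells but lower in myeloid cells of the mutant were *Clec10a* (-2.31), *Stab1* (-1.79), *Nlrc5* (-1.71), *Tnfsf9* (-1.32), *Ccr2* (-1.29), *Itga4* (-1.27), *Csf2ra* (-1.21) and *Atp6v0a1* (-1.14). *Ccr2* stood at 134 and 138 FPKM in wild-type and 54.8 and 55.4 FPKM in mutant myeloid libraries, and *Clec10a* at 558 and 556 FPKM and 110 and 113 FPKM. *Nkg7* was at 5.46 and 5.11 FPKM and 36.8 and 29.2 FPKM in the same order.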

How the results depend on the processing

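Counts of called genes stayed within 1.5 times under every alternative run. They were 2534 to 2603 at P56 and 2141 to 2171 against P30 with each library left out, where a lone library is assumed to vary like the others, and 3351 and 2863 with a pseudocount of 0.1. Scaling changed the split of directions, from 60.7% of calls higher at P56 to 45.8% at an equal sum of FPKM (1195 higher, 1413 lower), 53.1% at an equal median (1335 and 1180) and 48.1% after quantile normalization (1205 and 1301). Of the 2535 genes called at P56, 86.5% to 92.0% were also called under these scalings. The labels number the replicates of each group, but same-numbered libraries did not deviate together (correlations -0.094 to 0.078), and a replicate block gave 2536 and 2144 calls.

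At P56, the log2 change of *Cd74* turned to -0.22 after quantile normalization. *Abcg1*, *Bst2* and *Tnfrsf18* turned at an equal sum (-0.14, -0.13 and -0.0072), the first pair also at an equal median (-0.020 and -0.0075) and after quantile normalization (-0.076 and -0.11). With 1 library left out, *Bst2* ran from -0.0044 to 0.15 and *Il1r1* from -0.12 to 0.10. None of these had been called.

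Against P30, log2 changes turned at an equal sum for *Krt71* (-0.049), *Krt27* (-0.0060), *Gpx3* (-0.12), *Ccl27a* (-0.053), *Clec10a* (-0.022) and *Cxcl10* (-0.12), at an equal median for *Gpx3* (-0.0086), and after quantile normalization for *Krt71* (-0.11), *Ptprc* (-0.068), *Gpx3* (-0.032), *Ccl27a* (-0.15), *Clec10a* (-0.11) and *Cxcl10* (-0.15). With 1 library left out, *Serping1* ran from -0.17 to 0.078, *Hk2* from -0.21 to 0.18, *Lcn2* from -0.28 to 0.10, *Ccnb1* from -0.33 to 0.21, *Gpx3* from -0.027 to 0.052 and *Cxcl10* from -0.0042 to 0.053. The cause was not tested.

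Of the results for single genes at P56, 3766 kept direction and side of the threshold, 35 lost the call and 12 gained it. Calls lost without 1 library, with the log2 change then, were, without wild-type P56 replicate 1, *Krt5* (-0.99), *Atp6v0a1* (0.997) and *Hsph1* (0.999), without wild-type P56 replicate 2, *Rab27a* (-0.99), *Dusp4* (0.94) and *Mitf* (0.99), without mutant replicate 1, *Atp6v0a1* (0.95), *Mitf* (0.97), *Hbb-bs* (-0.98) and *Ch25h* (-0.99), and without mutant replicate 2, *Coro1a* (0.99) and *Dusp4* (0.89). Of the counts per list, 1630 stayed within 1.5 times and 66 moved further, 20 of them with 1 library left out. These were the counts of rising vacuolar ATPase, heat shock and MAPK genes, each lower by 1, of rising DNA replication (4 to 9) and endothelial genes (1 to 3), and of falling pigment cell and lipid handling genes (1 to 0). The rest were counts of falling genes higher by 1, in macrophages, scavenger receptors, alternative activation, chemokine receptors, CC chemokines, DNA replication and iron handling. The medians of the NF-κB, MHC class II, adipocyte, cell cycle inhibitor and glycolysis lists changed sign under at least 1 scaling.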
